A study of Homo sapiens with 5 samples.

Results

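A set of 10 angiogenic genes was followed in Rh41, an established human cell line of fusion-positive alveolar rhabdomyosarcoma, in which a translocation joins PAX3 to FOXO1. They were VEGFA, VEGFB, VEGFC, PGF, FLT1, KDR, FLT4, ANGPT1, ANGPT2 and EGFL7, taken by name from the 43714 gene rows of the count tables. Poly-A RNA was sequenced from cells 48 hours after transfection with a scrambled siRNA (n = 2 libraries, replicates 1 and 3) or with an siRNA against H3F3A (n = 3 libraries, replicates 1, 2 and 3). Both groups received their siRNA with the lipid carrier Lipofectamine RNAiMAX, and neither carries any engineered allele in the labels. H3F3A is 1 of the genes that encode the histone variant H3.3, and the series asks what H3.3 does in metastasis of this tumour. All 5 libraries come from 1 cell line and 1 siRNA per group, and nothing in the labels tells separate cultures from repeat libraries, so p-values measure only the spread between these libraries.

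The vascular endothelial growth factors are secreted ligands that act on receptor tyrosine kinases, mostly on endothelial cells. VEGFA, the main signal for vessel growth, acts through KDR (VEGFR2) and FLT1 (VEGFR1), VEGFB and placental growth factor (PGF) bind FLT1, and VEGFC acts through FLT4 (VEGFR3) in lymphatic vessels. The angiopoietins ANGPT1 and ANGPT2 bind the receptor TEK and set vessel stability. EGFL7 is a secreted matrix-associated protein of the vessel wall, and an intron of its gene holds the microRNA miR-126. Tumour cells commonly secrete VEGFA, while KDR and TEK are typical of endothelium.

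Sequences are printed for EGFL7, VEGFB, FLT1 and KDR. After H3F3A siRNA EGFL7 and VEGFB were lower and FLT1 was of similar level, while KDR was at or near 0 reads in both groups. The falls of EGFL7 and VEGFB were not called with the GC correction described below. No sequence before the start was available for VEGFA or FLT4. The printed sequences are from RefSeq, build GRCh38.p14, which the deposited counts may not have used. The pair of mature microRNAs of the EGFL7 gene follows first, with the seed (bases 2 to 8) in capitals, because reads from EGFL7 are also reads from their host transcript.
hsa-miR-126-5p, chr9:136670616-136670636, plus strand: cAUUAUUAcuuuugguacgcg
hsa-miR-126-3p, chr9:136670653-136670674, plus strand: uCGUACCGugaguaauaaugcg

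The 250 bases before annotated starts are given next, 5′ to 3′, EGFL7 with both of its listed starts. Capitals mark matches, on either strand, to the GC box core GGGCGG, the cAMP response element TGACGTCA, the hypoxia response core ACGTG and the ETS core CAGGAAG, and neighbouring matches may overlap.
EGFL7 first start, chr9:136658606-136658855, plus strand: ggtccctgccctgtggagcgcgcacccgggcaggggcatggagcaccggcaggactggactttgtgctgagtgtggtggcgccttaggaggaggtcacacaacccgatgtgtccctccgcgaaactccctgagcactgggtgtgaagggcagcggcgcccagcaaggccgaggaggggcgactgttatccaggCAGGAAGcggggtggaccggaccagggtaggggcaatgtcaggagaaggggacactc
EGFL7 second start, chr9:136662666-136662915, plus strand: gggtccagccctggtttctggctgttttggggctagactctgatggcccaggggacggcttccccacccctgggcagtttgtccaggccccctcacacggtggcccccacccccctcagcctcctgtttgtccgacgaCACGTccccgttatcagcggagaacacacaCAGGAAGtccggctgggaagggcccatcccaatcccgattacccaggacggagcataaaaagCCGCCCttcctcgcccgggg
VEGFB, chr11:64234334-64234583, plus strand: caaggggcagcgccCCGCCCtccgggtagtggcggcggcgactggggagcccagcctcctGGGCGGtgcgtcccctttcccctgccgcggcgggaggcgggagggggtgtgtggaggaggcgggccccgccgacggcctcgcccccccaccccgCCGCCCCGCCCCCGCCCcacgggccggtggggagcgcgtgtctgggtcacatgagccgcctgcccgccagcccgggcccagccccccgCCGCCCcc
FLT1, chr13:28495129-28495378, minus strand: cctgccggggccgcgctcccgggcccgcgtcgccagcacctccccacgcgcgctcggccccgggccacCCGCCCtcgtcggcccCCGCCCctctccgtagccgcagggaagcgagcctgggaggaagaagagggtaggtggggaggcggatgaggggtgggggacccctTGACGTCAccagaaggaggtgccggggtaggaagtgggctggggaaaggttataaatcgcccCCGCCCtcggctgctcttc
KDR, chr4:55125596-55125845, minus strand: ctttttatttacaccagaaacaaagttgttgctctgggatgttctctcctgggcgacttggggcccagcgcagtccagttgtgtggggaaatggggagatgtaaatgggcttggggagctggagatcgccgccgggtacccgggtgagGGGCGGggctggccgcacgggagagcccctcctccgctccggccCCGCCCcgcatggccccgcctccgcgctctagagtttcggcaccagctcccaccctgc

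Both EGFL7 windows held 1 ETS core, a motif found in 10.5% of 35116 windows of the same length. The second EGFL7 window also held 1 hypoxia response core (18.5% of windows) and 1 GC box core (42.6%). The VEGFB window held 6 GC box cores, the FLT1 window 3, and the KDR window 2. FLT1 alone of the printed windows held a cAMP response element, which 1.65% of windows have. GC content was 66.4% and 64.8% in the EGFL7 windows, 82.8% for VEGFB, 73.2% for FLT1 and 65.2% for KDR, against a median of 58% over all windows. A match describes the letters and does not show a bound site, and the gene counts do not tell which EGFL7 start was used.

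Assigned counts ran from 28493573 to 30705963 per library. H3F3A (row H3-3A) stood at 294 and 269 CPM (reads scaled to TMM-adjusted library size) with scrambled siRNA against 9.38, 10.5 and 8.54 CPM after H3F3A siRNA, so 3.36% of its level remained. Its sister gene H3F3B had a log2 fold change of 0.00 (95% interval -0.16 to 0.15). Rhabdomyosarcoma genes were abundant, with MYOD1 at 1060 to 1490 CPM and DES at 661 to 928 CPM, and of that list of 10 genes CDH3 alone stayed under 0.5 CPM. The summed list was 5080 to 6030 CPM with scrambled siRNA and 4410 to 4540 CPM with H3F3A siRNA. In it FGFR4 fell (log2 fold change -0.50, edgeR adjusted p = 0.00257) and TFAP2B rose (0.49, adjusted p = 0.00133). Of 14 endothelial markers 6 stayed under 0.5 CPM in every library, among them CDH5, ERG and PLVAP, and SOX17 was at 0 in all 5. The summed endothelial list was 30.4 to 32.8 CPM with scrambled siRNA against 25.1 to 26 CPM after H3F3A siRNA. Its most abundant gene was ROBO4 (11.2 to 16.9 CPM), which fell (log2 fold change -0.45, edgeR adjusted p = 0.0168, and adjusted p = 0.0684 with the GC correction described below). The summed lists for immune cells (4.08 to 4.86 CPM) and epithelium (5.34 to 6.79 CPM) were also low. Those for mural cells (560 to 606 against 467 to 554 CPM) and fibroblasts (50.6 to 59 against 44.4 to 49.7 CPM) were lower after H3F3A siRNA, with 3 of 7 markers in each list under 0.5 CPM. Within them PDGFRB and COL1A1 fell (log2 fold change -0.36 for each, edgeR adjusted p = 0.0162 and 0.041) and PDGFRA rose (0.53, adjusted p = 0.0455). NOTCH3, the most abundant mural marker, was not called (adjusted p = 0.294). Apart from the second adjusted p of ROBO4, these marker values and sums carry no GC correction. The part of these shifts in the results was not tested. All 5 libraries are of the Rh41 line, so these lists give transcript levels in that culture and not numbers of cells of each type. Bulk RNA of such a culture does not tell fewer cells expressing a gene from less RNA per cell.

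Of the 10 genes, 7 passed the filter on low counts and were tested, and VEGFA, VEGFB and EGFL7 fell after H3F3A siRNA. None rose. The background was 2.69% of 15859 tested genes called lower and 0.504% called higher (edgeR quasi-likelihood test, Benjamini-Hochberg adjusted p under 0.05). The median log2 fold change of the 7 tested members was -0.25, against 0.01 over all tested genes. Scrambled replicate 1 was rich in reads from GC-rich genes, and with each library's GC trend removed VEGFA alone of the members was called, against 1.28% called lower and 0.517% called higher over all genes. The median of the 7 was then -0.09. The GC trend differed between the groups, so its removal also takes out any group difference that follows GC content.

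**Figure D1:**
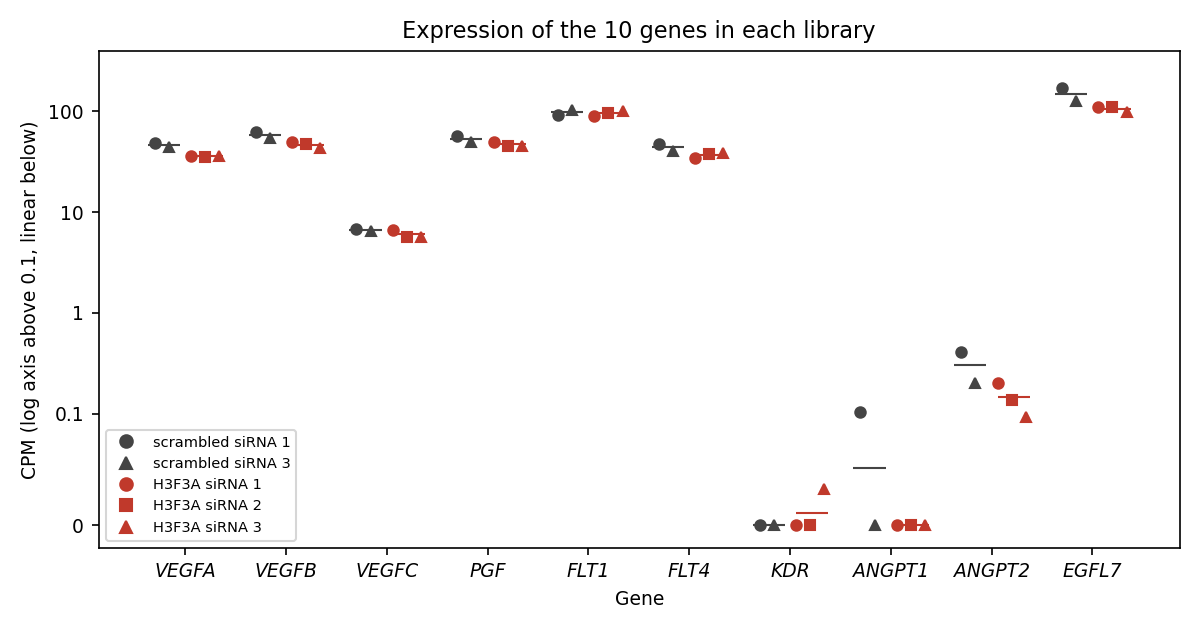
CPM of each gene (vertical axis, logarithmic above 0.1 and linear below) in each library, with grey symbols for scrambled siRNA, red symbols for H3F3A siRNA and a short line at each group mean. VEGFA, VEGFB, FLT4 and EGFL7 have every red point below both grey points, while KDR and ANGPT1 lie at or near 0.

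Among the ligands, VEGFA changed most steadily. It stood at 48.4 and 44 CPM in scrambled replicates 1 and 3 and at 36.2, 35.3 and 36.1 CPM in H3F3A siRNA replicates 1, 2 and 3. The groups did not overlap, and the 3 H3F3A siRNA libraries lay within 1 CPM of each other. VEGFA thus fell 1.29-fold (log2 fold change -0.36, SE 0.08, 95% interval -0.53 to -0.20, edgeR adjusted p = 0.014). Its transcript has 51.3% GC, close to the middle of all tested genes, and the correction moved little: the log2 fold change was then -0.35 (SE 0.06, adjusted p = 0.00584). With its longest transcript of any type (54.65% GC) the corrected log2 fold change was -0.30 (edgeR adjusted p = 0.0143). Gene counts do not separate the splice forms of VEGFA.

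VEGFB, a ligand of FLT1, stood at 61.9 and 54.4 CPM with scrambled siRNA against 50.1, 47.1 and 43.3 CPM after H3F3A siRNA. The groups did not overlap, and scrambled replicate 1 was the highest library. VEGFB fell 1.24-fold (log2 fold change -0.31, SE 0.08, edgeR adjusted p = 0.0449), just inside the threshold. Its transcript has 66.7% GC. With the GC correction the values were 50.2 and 54.2 against 54.8, 49.6 and 46.3 CPM, so that the groups overlapped. The corrected log2 fold change was -0.05 (95% interval -0.20 to 0.09, adjusted p = 0.822).

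PGF, also a ligand of FLT1, stood at 56.6 and 50 CPM with scrambled siRNA against 50, 45.2 and 45.8 CPM after H3F3A siRNA. H3F3A siRNA replicate 1 lay level with scrambled replicate 3, so the groups overlapped. The log2 fold change was -0.18 (95% interval -0.35 to -0.01, edgeR adjusted p = 0.264), and 0.04 with the GC correction (95% interval -0.10 to 0.18), so its sign depended on that step. It also depended on the transcript used: with the longest PGF transcript of any type (54.9% GC) the corrected log2 fold change was -0.11. The PGF counts may also be incomplete. The long noncoding gene LOC107984690 overlaps PGF, and reads over both were ambiguous in the unstranded column and dropped. Counted on either strand, PGF had 2503 and 2228 reads with scrambled siRNA against 2193, 2043 and 2063 after H3F3A siRNA, and 31.4% to 35.8% of these were absent from the unstranded counts. On those sums the log2 fold change was -0.18 (adjusted p = 0.231).

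VEGFC, the lymphatic ligand, was the least abundant tested member. It stood at 6.79 and 6.5 CPM with scrambled siRNA against 6.7, 5.69 and 5.66 CPM after H3F3A siRNA, from 165 to 200 reads a library. The groups overlapped. Its log2 fold change of -0.14 had a 95% interval of -0.41 to 0.13 (edgeR adjusted p = 0.623), an interval that includes the value of VEGFA.

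Of the receptors, FLT1 was the most abundant in reads. It stood at 91.8 and 104 CPM with scrambled siRNA against 90, 95.8 and 100.3 CPM after H3F3A siRNA. The groups overlapped in full, with scrambled replicate 1 second lowest. The log2 fold change was -0.04 (95% interval -0.21 to 0.13, edgeR adjusted p = 0.849), and -0.09 with the GC correction (95% interval -0.22 to 0.04). Membrane-bound and soluble FLT1, which come from the same gene, are not separated by gene counts.

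FLT4 stood at 47 and 40.6 CPM with scrambled siRNA against 34.3, 37.5 and 38.6 CPM after H3F3A siRNA. The groups did not overlap, but the difference was not called (log2 fold change -0.25, SE 0.09, edgeR adjusted p = 0.118). Groups that do not overlap, with H3F3A siRNA lower, were found in 17.1% of all tested genes. Among the 7 tested members these were VEGFA, VEGFB, FLT4 and EGFL7. The FLT4 transcript has 61.9% GC, and with the correction its log2 fold change was -0.08 (95% interval -0.21 to 0.06).

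KDR, the principal signalling receptor for VEGFA, had 1 read in H3F3A siRNA replicate 3 and 0 in the other 4 libraries. A count of 0 allows up to 3 reads, or 0.101 to 0.103 CPM in the scrambled libraries, by counting error alone. KDR has no numbered copy among the gene rows and no overlapping gene there, whereas LDHA, which glycolytic cells express strongly, has 1 numbered copy and 0 to 2 reads a library. None of the 10 members has a numbered copy.

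The angiopoietins were close to the detection limit. ANGPT1, the TEK agonist, had 3 reads in scrambled replicate 1 and 0 in the other 4 libraries. ANGPT2, its context-dependent antagonist, had 12 and 6 reads with scrambled siRNA against 6, 4 and 3 after H3F3A siRNA. ANGPT2 lies within MCPH1, and counted on either strand it had 25 and 20 reads against 16, 15 and 13, so most reads over it were dropped as ambiguous. Whether those came from ANGPT2 or from MCPH1, which stood at 19.6 to 22.5 CPM, is not known. Without the filter on low counts, 28308 genes were tested and KDR, ANGPT1 and ANGPT2 were not called (edgeR adjusted p = 0.777, 0.556 and 0.591). Counts this low limit what can be seen of a fall or a modest change in any of the 3.

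EGFL7 had the highest CPM of the members in 4 of 5 libraries, with FLT1 above it in H3F3A siRNA replicate 3, and the lowest log2 fold change of the 7 tested. It stood at 169.7 and 126.3 CPM with scrambled siRNA against 110.6, 109.5 and 98.9 CPM after H3F3A siRNA. The groups did not overlap, and scrambled replicate 1 stood well above all others. EGFL7 fell 1.39-fold (log2 fold change -0.48, SE 0.10, 95% interval -0.68 to -0.27, edgeR adjusted p = 0.0101). Its transcript is the most GC-rich of the members, at 68.1%. With the GC correction the values were 135.2 and 125.4 against 121.9, 115.3 and 106.6 CPM, still without overlap. With that correction, 15% of all tested genes were lower without overlap, among the members also VEGFA and FLT4. The corrected log2 fold change of EGFL7 was -0.19 (95% interval -0.31 to -0.06) and the call was lost (edgeR unadjusted p = 0.00716, adjusted p = 0.153). With the replicate number as a block beside the GC correction it was called (log2 fold change -0.19, adjusted p = 0.000867), though the numbers are not known to pair the libraries. The row for the miR-126 hairpin had 3 and 2 reads with scrambled siRNA against 0 in each H3F3A siRNA library. Poly-A libraries of this kind do not measure mature microRNAs.

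**Figure D2:**
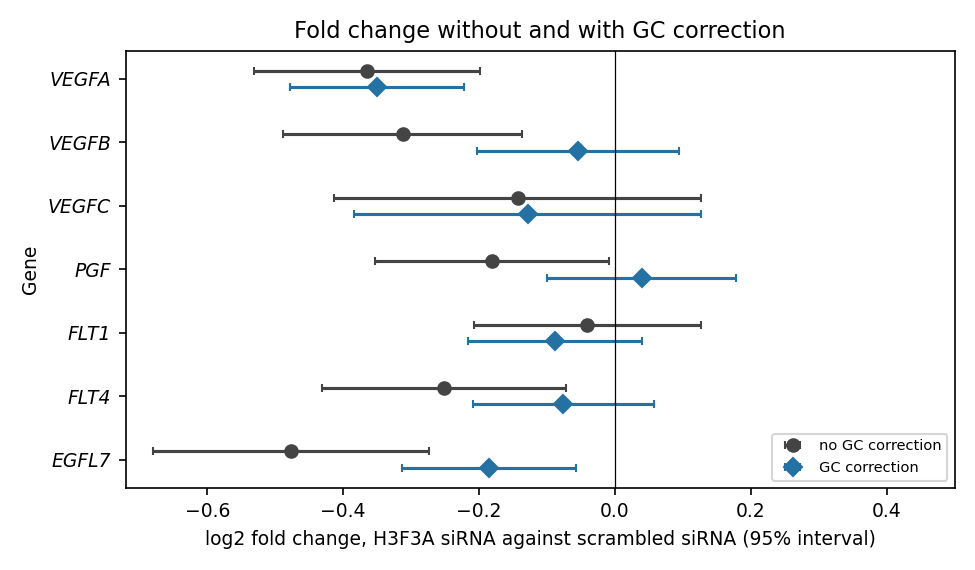
Log2 fold change of each tested gene with its 95% interval, without (circles) and with (diamonds) the GC correction. VEGFA is at -0.36 without and -0.35 with it, whereas EGFL7 moves from -0.48 to -0.19 and VEGFB from -0.31 to -0.05.

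The pull of GC content was measured over all genes. The slope of log2 CPM (as a deviation from the 5-library mean) per 10 points of GC was 0.145 for scrambled replicate 1. It was -0.01 for scrambled replicate 3, and -0.06, -0.04 and -0.04 for H3F3A siRNA replicates 1, 2 and 3. Every H3F3A siRNA library thus had a lower slope than either scrambled library. Library preparation and the siRNA cannot be told apart as the source of this trend, and this was not tested. A call lost with the GC correction therefore does not show that the gene was unchanged. When all tested genes with a GC value were sorted into 10 equal bins by GC content, the median log2 fold change went from 0.11 in bin 1 to -0.23 in bin 10, and the share called lower from 0.0707% to 14.2%. EGFL7, VEGFB and PGF lay in bin 10 and FLT4 in bin 9, where the median was -0.15. VEGFA and VEGFC lay in bin 6, where the median was 0.00 and 1.06% of genes were called lower. The uncorrected value lay below the median of its bin for EGFL7 (-0.48 against -0.23), VEGFB (-0.31 against -0.23), FLT4 (-0.25 against -0.15), VEGFA (-0.36 against 0.00) and VEGFC (-0.14 against 0.00), and also for FLT1 (-0.04 against 0.06). PGF lay above it (-0.18 against -0.23). The correction removed from EGFL7 0.33 log2 in scrambled replicate 1 and added 0.07 to 0.14 in the H3F3A siRNA libraries. For VEGFA it removed 0.03 from scrambled replicate 1.

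**Figure D3:**
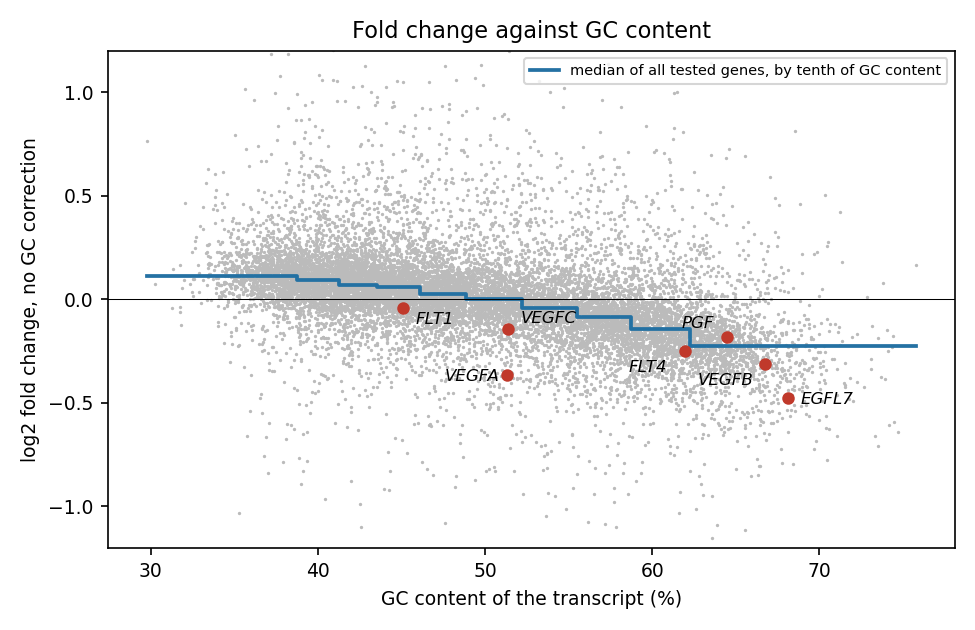
Log2 fold change without GC correction (vertical axis) against GC content of the transcript in percent (horizontal axis) for tested genes (grey; those beyond the axis limits are not drawn), with the median of each of 10 bins of GC content (blue line) and the tested members (red). The line falls from 0.11 to -0.23. VEGFA lies well below it, and PGF lies just above it.

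**Figure D4:**
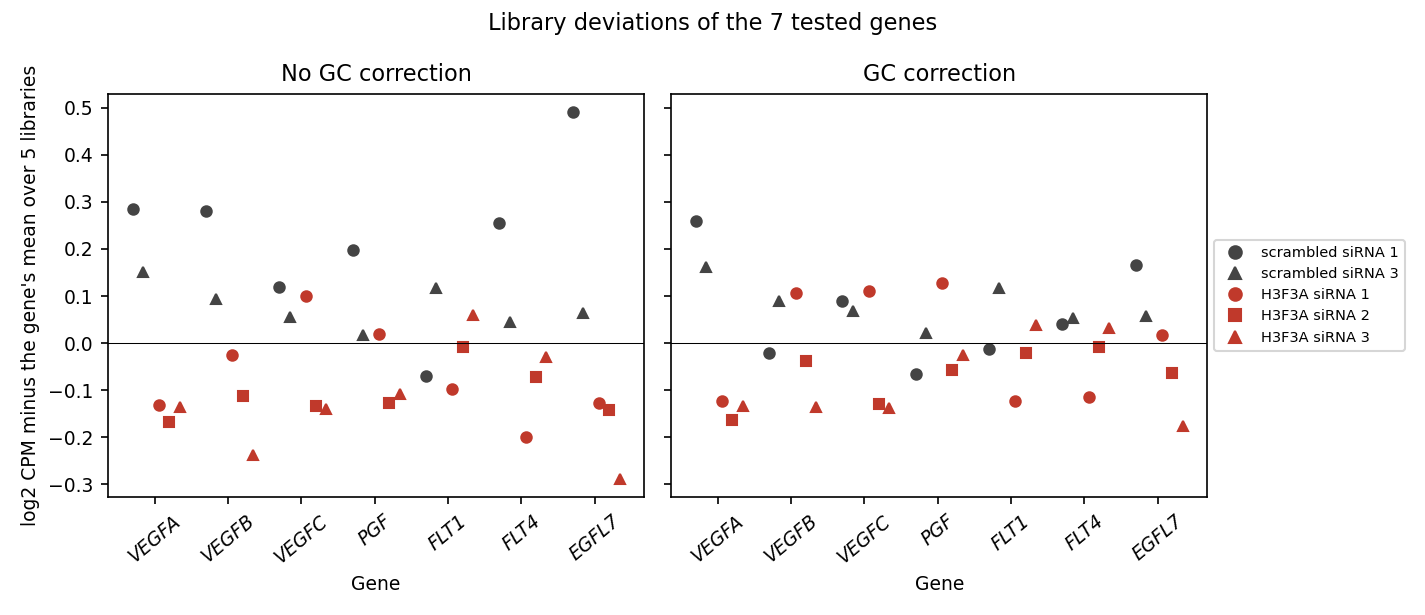
Log2 CPM of each library minus the gene's mean over 5 libraries, without (left) and with (right) the GC correction. Scrambled replicate 1 (grey circle) is highest for EGFL7 at 0.49 before correction and at 0.17 after it, whereas both grey points of VEGFA remain above all red points.

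Single libraries decided several calls. Without scrambled replicate 1 none of the members was called, with log2 fold changes of -0.30 for VEGFA, -0.25 for EGFL7 and -0.22 for VEGFB. Without H3F3A siRNA replicate 1 none was called either, although their log2 fold changes were -0.37, -0.50 and -0.36. In that fit only 9 of 15656 tested genes were called lower and 6 higher. Without scrambled replicate 3, log2 fold changes were -0.43 (VEGFA), -0.68 (EGFL7), -0.40 (VEGFB), -0.35 (FLT4), -0.27 (PGF), -0.175 (VEGFC) and 0.05 (FLT1). Leaving out either scrambled replicate leaves 1 scrambled library, so the spread in those fits comes from the H3F3A siRNA libraries alone. VEGFA also missed the threshold without H3F3A siRNA replicate 2 (adjusted p = 0.0853), as did VEGFB without replicate 2 or 3 (adjusted p = 0.149 and 0.226). With the GC correction and 1 library left out in turn, the log2 fold change of VEGFA ran from -0.40 to -0.30. Its call was lost without scrambled replicate 1 (adjusted p = 0.113) and without H3F3A siRNA replicate 3 (adjusted p = 0.0663). EGFL7 was called with the GC correction when H3F3A siRNA replicate 1 was left out (log2 fold change -0.23, adjusted p = 0.0296).

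**Figure D5:**
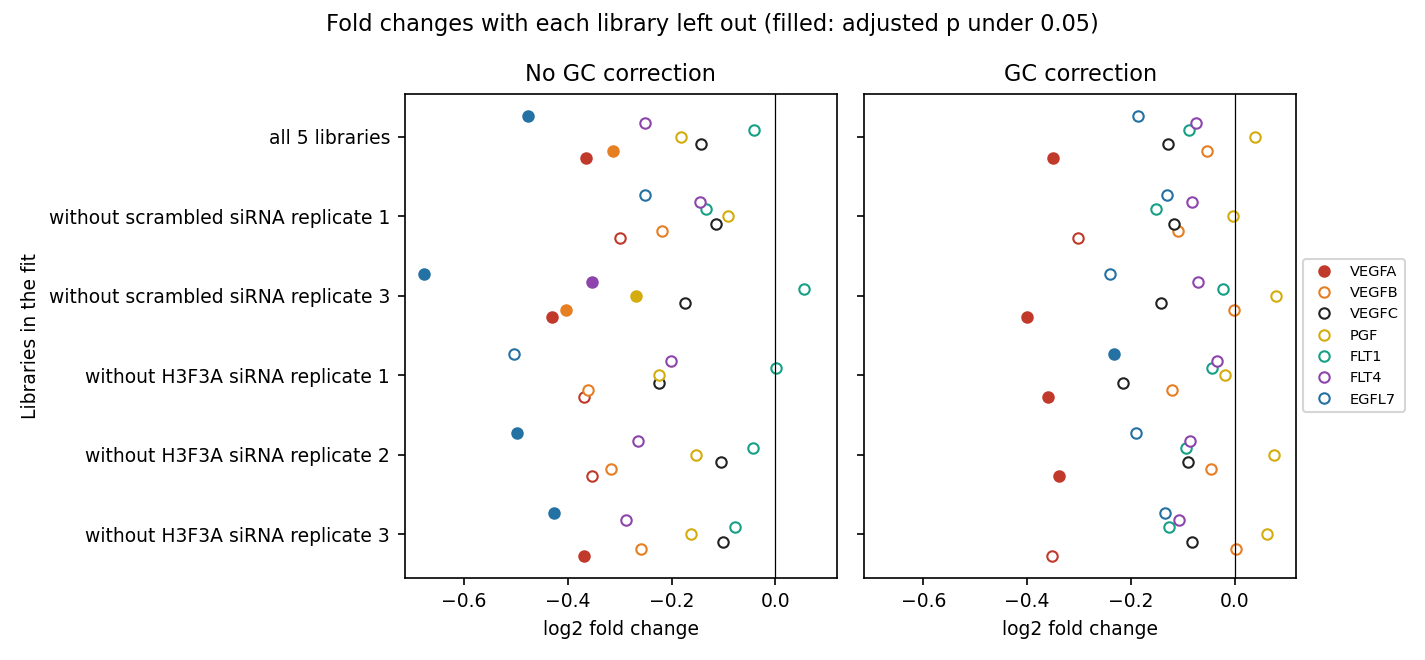
Log2 fold change of each tested gene (horizontal axis) when all libraries are used or 1 is left out (rows), without (left) and with (right) the GC correction; filled points have an adjusted p under 0.05. VEGFA ranges from -0.43 to -0.30 on the left and from -0.40 to -0.30 on the right, and EGFL7 ranges from -0.68 to -0.25 and from -0.24 to -0.13.

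Levels were compared between genes as CPM per kilobase of the longest protein-coding transcript, a scale that still carries the differences in GC content. In scrambled libraries EGFL7 stood at 69.7 ± 14.5 (SD, n = 2), VEGFB at 42.1 ± 3.86, PGF at 27.7 ± 2.43, FLT1 at 13.8 ± 1.25, VEGFA at 13.1 ± 0.866, FLT4 at 7.48 ± 0.772 and VEGFC at 3.22 ± 0.099. FLT1 and VEGFA did not differ beyond their spread. After H3F3A siRNA the order was the same, with EGFL7 at 50 ± 3.03 (SD, n = 3), VEGFB at 33.9 ± 2.49, PGF at 24.4 ± 1.37, FLT1 at 13.5 ± 0.731, VEGFA at 10.1 ± 0.141, FLT4 at 6.28 ± 0.38 and VEGFC at 2.92 ± 0.287. FLT1 and VEGFA then no longer overlapped, at 12.7 to 14.2 against 9.98 to 10.2. The per-length value of PGF leaves out reads shared with LOC107984690, 31.4% to 35.8% of those counted on either strand. If those are PGF reads, PGF would be about level with VEGFB in scrambled libraries and above it after H3F3A siRNA. The order of PGF and VEGFB is therefore not settled.

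Shares of the VEGF ligands were compared without a test. They carry no GC correction, and as parts of the same total they do not move independently. Ambiguous PGF reads are left out, so the lead of VEGFB over PGF is not settled. How often such shares do not overlap between groups was not measured for other genes. Of all ligand CPM per kilobase, VEGFB made up 49.2% and 48.7% with scrambled siRNA against 47.9%, 48.6% and 46% after H3F3A siRNA. These did not overlap, with H3F3A siRNA lower. VEGFA made up 15% and 15.4% against 13.5%, 14.2% and 15%, with H3F3A siRNA replicate 3 level with scrambled replicate 1. PGF made up 32.2% and 32% against 34.3%, 33.3% and 34.9%, and VEGFC 3.61% and 3.89% against 4.29%, 3.92% and 4.03%, both without overlap and higher with H3F3A siRNA. Counted in reads alone, the share of VEGFA was 27.8% and 28.4% against 25.3%, 26.5% and 27.6%, without overlap. That of VEGFB was 35.7% and 35.1% against 35%, 35.4% and 33.1%, which overlapped, unlike its share per kilobase. The read shares of PGF and VEGFC were again higher with H3F3A siRNA without overlap. The reads of VEGFA per VEGFB read were 0.781 and 0.809 against 0.722, 0.749 and 0.835, so the groups overlapped. For the receptors, FLT4 had 0.512 reads per FLT1 read in scrambled replicate 1, while the other 4 libraries lay between 0.381 and 0.392. EGFL7 per FLT1 read was likewise 1.85 in scrambled replicate 1, and 1.21 in scrambled replicate 3 against 1.23, 1.14 and 0.986 after H3F3A siRNA.

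Relatives and co-receptors of these families showed no called gene. Of 16 listed genes 8 were tested, with a median log2 fold change of 0.01 and 4 of 8 below 0. NRP1, a neuropilin co-receptor for VEGFA, averaged 19.4 CPM (SD 0.0664) with scrambled and 16.2 CPM (SD 1.14) with H3F3A siRNA (log2 fold change -0.26, edgeR adjusted p = 0.145, and -0.31, adjusted p = 0.0663, with the GC correction). TIE1 was tested at about 3 CPM, and TEK, the angiopoietin receptor, had 29 reads over all libraries.

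Among other genes of oxygen sensing and hypoxia, 1 of 24 tested fell and none rose, 12 lay below 0, and the median was -0.01. Over all tested genes 2.69% were called lower and 0.504% higher, with a median of 0.01. LOX, a collagen cross-linking enzyme, fell 1.41-fold (edgeR adjusted p = 0.0408; mean 8.33 CPM with scrambled and 5.9 CPM with H3F3A siRNA, SD 0.0576 and 0.906), and was also called with the GC correction (adjusted p = 0.0239). The sensors and factors HIF1A (log2 fold change 0.06), ARNT (0.04), VHL (-0.04) and EGLN1 (-0.21) were not called. Of the stress genes 1 of 14 tested fell and none rose, with a median of -0.11. With the GC correction 2 were called lower, against 1.28% over all tested genes. SLC7A5 was called in both fits. SLC7A5, an amino acid transporter, fell 1.36-fold (adjusted p = 0.00246, and 1.22-fold, adjusted p = 0.00584, with the GC correction). The endoplasmic reticulum chaperone HSPA5 fell with the GC correction alone (log2 fold change -0.23, adjusted p = 0.0372), and ATF4, a transcription factor that can raise VEGFA, was not called (log2 fold change -0.05).

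Among other angiogenic ligands 2 of 16 tested fell and none rose, with a median of -0.21, and -0.09 with the GC correction. The shares over all tested genes were 2.69% lower and 0.504% higher (median 0.01), and 1.28% lower with the GC correction. PDGFA, a platelet-derived growth factor chain, fell 1.31-fold (edgeR adjusted p = 0.00969; mean 198 CPM with scrambled and 151 CPM with H3F3A siRNA, SD 19.4 and 11). CCN1, a matricellular ligand of integrins, fell 1.34-fold from 103 to 77.3 CPM (adjusted p = 0.00347). Both were also called with the GC correction, at log2 fold changes of -0.36 and -0.42. FGF2, a fibroblast growth factor, was not called (log2 fold change 0.23, adjusted p = 0.362).

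Angiogenesis inhibitors and their precursors fell in 2 of 15 tested genes and rose in none, with a median of -0.11. With the GC correction 3 were called lower. Those shares over all tested genes were 2.69% lower and 0.504% higher (median 0.01), and 1.28% lower with the GC correction. THBS1, an anti-angiogenic thrombospondin, fell 1.27-fold from 84.4 ± 8.73 to 66.7 ± 4.05 CPM (edgeR adjusted p = 0.025, and 0.00584 with the GC correction). COL18A1, the collagen whose fragment is endostatin, fell 1.45-fold without and 1.2-fold with the GC correction (adjusted p = 0.0055 and 0.0226). SPARC, a secreted matrix protein, fell with the GC correction alone (log2 fold change -0.27, adjusted p = 0.0319). Of 20 tested signal transducers of the VEGF receptors, NFATC1, a calcium-dependent transcription factor, fell 1.24-fold (adjusted p = 0.045) and PIK3R1, a regulatory subunit of PI3-kinase, rose 1.26-fold (adjusted p = 0.0391). Neither was called with the GC correction (adjusted p = 0.283 and 0.0688).

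For each member called without GC correction, the 3 genes of nearest profile were found among 9716 genes averaging 8 CPM or more, by Euclidean distance between log2 CPM over the 5 libraries, each centred on its mean. The nearest to VEGFA were LAMB3, a laminin chain (distance 0.0312), MCAM, an adhesion molecule (0.033), and DTX2, a Deltex ubiquitin ligase (0.0423). LAMB3 and MCAM were called with the GC correction as well (edgeR adjusted p = 0.0296 and 0.00357), and DTX2 was not (adjusted p = 0.35). The nearest to EGFL7 were GAA, the lysosomal alpha-glucosidase (0.0379), SH2B2 (0.0643) and YDJC (0.0683), whose transcripts have 64.1% to 68.3% GC. Of these GAA alone was called with the GC correction (adjusted p = 0.0345). The nearest to VEGFB were MOB3C, ZNF580 and the DNA polymerase POLL, at 0.0477 to 0.0688, with 54.9% to 61.7% GC. Of the neighbours of VEGFB, ZNF580 alone was called without the GC correction (edgeR adjusted p = 0.0493), and none was called with it. Likeness over 5 libraries of 2 groups is a description and carries the GC trend of the libraries.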

How the data were processed

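Rh41 libraries were made from poly-A RNA with a NEBNext Ultra kit, per the labels' protocols, which does not mark strand. Tools named in the submitters' processing notes are STAR 2.5, HTSeq 0.6.1, CASAVA, bcl2fastq and DESeq2, with the build hg19 and no roles given. Each deposited table holds whole, unnormalized counts of reads by gene, laid out as STAR writes them, and its unstranded column was used. The 4 summary lines were left out. Unmapped reads made up 4.84% to 5.48%, multimapping reads 6.28% to 6.42%, reads outside exons 9.17% to 10.2% and ambiguous reads 4.45% to 4.56%.

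The test was that of edgeR 4.0.16 under R 4.3.3 (filterByExpr with a minimum count of 10 and total of 15, 15859 genes, TMM, robust quasi-likelihood fit of the 2 groups, calls at a Benjamini-Hochberg adjusted p under 0.05). A standard error is the log2 fold change over the root of F. For the GC correction, a lowess curve (span 0.3) of log2 CPM minus the mean over libraries on GC content was fitted per library and added to the offsets. GC content and length came from the longest protein-coding transcript in GENCODE 29 (or the longest of any type), and 89.2% of tested genes had a value. Their build may differ from that of the counts, so coordinates are given only for the RefSeq sequences printed, on GRCh38.p14. The fit was tested on simulated data. Its first pass condition, on recovery over all genes, was not met and was replaced, after that result was seen, by a condition on genes of higher level. limma 3.58.1 and DESeq2 1.42.0 were alternatives, as were other scalings, filters, count columns and left-out libraries. The genes named are the 10 members, H3F3A and H3F3B, called genes of 6 lists, for a list without one the gene of smallest p, and the 3 nearest profiles. A few further genes of the lists and markers were named after their values were seen. The members and lists were chosen with earlier results of these data known.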

Additional observations from a re-analysis of the deposited data

How the results depend on the processing

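VEGFA kept its direction in all 22 alternatives and its call in 17, with log2 fold changes from -0.43 to -0.30, and EGFL7 kept its direction in 22 and its call in 13 (-0.68 to -0.13). VEGFB was called in 6 of 22. It was lost, for example, with upper-quartile scaling (edgeR adjusted p = 0.0659) and limma-voom (adjusted p = 0.0545). Signs turned for VEGFB with the GC correction without H3F3A siRNA replicate 3 (0.00242), for FLT1 without scrambled replicate 3 (0.0546) or H3F3A siRNA replicate 1 (0.00181), and for PGF with the GC correction (0.0395), also with stranded sums (0.0185), without scrambled replicate 3 (0.0799), and without H3F3A siRNA replicate 2 (0.0749) or 3 (0.061).

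Leaving out 1 library, the members called lower ran from 0 to 5, and all genes called lower from 9 to 1737 and higher from 6 to 744. With the GC correction 203 genes were lower and 82 higher, with 1 member lower. Leaving out scrambled replicate 1 as well gave 63 lower and 18 higher (0 members). Leaving out another library instead gave 120 and 52 (1 member) without scrambled replicate 3, 247 and 130 (2 members) without H3F3A siRNA replicate 1, 91 and 43 (1 member) without replicate 2, and 38 and 21 (0 members) without replicate 3. GC content of the longest transcript of any type gave 199 lower (1 member), and stranded sums 211 (1 member). Without a filter 153 genes were higher, and upper-quartile scaling gave 323 lower and 116 higher against 427 and 80. Of the settings that join the GC correction with a left-out library, that without scrambled replicate 1 was planned. The other 4, the transcript of any type and the GC correction on stranded sums were chosen after seeing the data.

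With the replicate number as a block (replicate block), 476 genes were lower and 98 higher, with 2 members lower, EGFL7 and VEGFA. With the block and GC correction together 764 were lower and 472 higher, with 2 members lower, VEGFA (adjusted p = 8.92e-06) and EGFL7 (-0.19, adjusted p = 0.000867), and PGF had a log2 fold change of 0.0752. Same-numbered libraries had deviations correlated at 0.112 and 0.0487, and no label ties them, so they share only a number.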
